A study of Mus musculus with 16 samples.

Results

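The comparison described here sets 4TO7 cells overexpressing the miRNAs of Cluster 2 against 4TO7 cells infected with the empty pMSCV hygro vector, called Hygro vec. It rests on 4 of the 16 arrays of the series, chosen by sample title: Cluster 2 repeats A and B, and Hygro vec repeats A and B. 4TO7 is a mouse mammary carcinoma line, grown here in DMEM with 10% FBS, and all groups derive from it. Each array carried sample RNA in Cy3 and, in Cy5, a common reference made from the RNA of 11 mouse cell lines. Repeat A of both groups lay on 1 slide and repeat B on another, so the groups were paired by repeat. The series also holds Clusters 1+2 cells with their control (Hygro vec + Puro vec, both empty vectors), on the same slides and in the same dye. Cluster 1 cells with their own Puro vec control lay on another slide with the dyes exchanged. The sources used here do not say whether a group was 1 clone or a pool of infected cells. The series calls the repeats biological replicates, and nothing says that they came from separate infections, so p-values cover only how far these samples differ, which may be technical.

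The miR-200 family holds back epithelial-mesenchymal transition. Its members bind the transcripts of Zeb1 and Zeb2, transcription factors that sit on E-box motifs in the promoters of Cdh1 and other epithelial genes and repress them. In carcinoma cells, high miR-200 is known to go with E-cadherin, keratins and cell junctions, and low miR-200 with a mesenchymal state. The family is encoded in a pair of genomic clusters, and the sources used here do not state which of them Cluster 2 stands for.

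The mature sequences are shown because the seed, bases 2 to 8, largely decides which transcripts a miRNA binds. They are from RefSeq (GRCm38.p6), written 5′ to 3′ with the seed in capitals. The cluster on the minus strand of chromosome 4 encodes miR-200b, miR-200a and miR-429 (miR-200b-3p at chr4:156055685-156055706), and the cluster on the minus strand of chromosome 6 encodes miR-200c and miR-141 (miR-200c-3p at chr6:124718324-124718346).
miR-200b-3p: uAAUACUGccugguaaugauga
miR-200a-3p: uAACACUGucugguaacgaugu
miR-429-3p: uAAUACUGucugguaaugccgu
miR-200c-3p: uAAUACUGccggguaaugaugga
miR-141-3p: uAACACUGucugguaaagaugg
The seed AAUACUG is shared by miR-200b, miR-429 and miR-200c, and the seed AACACUG by miR-200a and miR-141. Each genomic cluster holds both seeds. The levels of the miRNAs themselves were not measured here.

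Values below are log2 ratios of sample over reference RNA for the probe that stands for a gene, and a fold change is the difference between groups on that scale. Between 22933 and 29870 probes were well above background on the Cluster 2 arrays, and between 20132 and 26678 on the Hygro vec arrays; the number of arrays limits the precision. Repeats of a group correlated at 0.965 in Cluster 2 and 0.963 in Hygro vec across genes, which are not independent replicates, and differed by a median of 0.0916 in either group. The epithelial markers Krt8, Krt18, Krt19, Epcam and Cdh1 and the mesenchymal markers Vim and Fn1 were above background on all 4 arrays. Leukocyte markers (10 genes) and endothelial markers (9 genes tested) held 0 called genes, beside 4.08% of all genes, and lists this short can hold none at that share. Above background were 8 and 6 leukocyte markers on the Cluster 2 arrays, and 7 and 5 on the Hygro vec arrays. The summed leukocyte signal was 818 and 914 in Cluster 2, against 840 and 1170 in Hygro vec.

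In Cluster 2 cells 435 genes were higher and 338 lower than in Hygro vec, of 18943 tested, at a limma adjusted p under 0.05 (the definition of a called gene below). That is 4.08% of genes called in either direction, 2.3% higher and 1.78% lower, the shares to set beside the counts for each gene list below. The rises were larger: 62 genes were called at least 2-fold higher (0.327%) and 8 at least 2-fold lower (0.0422%). Krt7, Kctd12b, Serpinb5, Lsr and Mpzl2 led the rises, and Il33, Trim12c, Lgi2, Serpinb8 and Mmp3 the falls. The sign was the same on both slides for 427 of the 435 rises and 336 of the 338 falls. These genes were called from the same arrays, so much of that agreement follows from the calling. Across all genes with a value on all 4 arrays, the differences on the slides of repeats A and B correlated at 0.467. The Cluster 2 minus Hygro vec difference had an SD across genes of 0.205 on the slide of repeat A and 0.268 on that of repeat B. The calls draw on the spread of all 16 arrays: with the 4 arrays fitted alone, Krt7 was the 1 gene called, with 2598 genes at an unadjusted p under 0.05. The count was 266 without Cluster 2 repeat B and 358 without Hygro vec repeat B, against 820 and 880 without the A repeats, and falls numbered 202 without pairing by repeat. Rises made up 56.3% of calls, and 92% of 4680 calls with arrays centred on the median in place of loess.

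**Figure D1:**
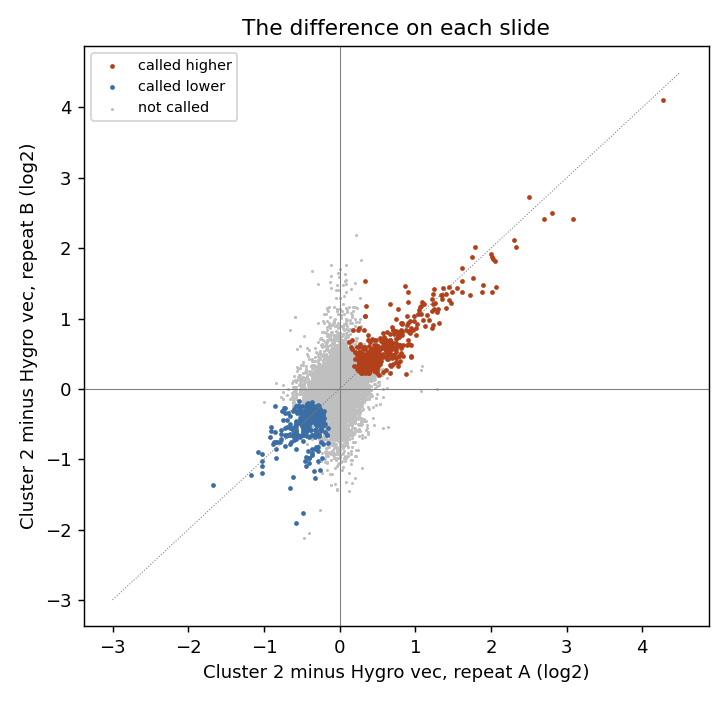
Difference between Cluster 2 and Hygro vec (log2) on the slide of repeat A (x axis) and of repeat B (y axis), 1 point per gene, for genes with a value on all 4 arrays. The 435 rises and 338 falls lie almost entirely in the quadrants where both slides have the same sign, which follows largely from their being called on these arrays. Krt7 stands alone at the upper right.

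Keratins of simple epithelia gave the largest change. Krt7, which pairs with type I keratins in glandular epithelium, was at 2.17 and 2.21 in Cluster 2, against -2.1 and -1.9 in Hygro vec. The rise was 4.19 ± 0.097 (SE, n = 2 arrays per group, limma adjusted p = 8.95e-10), 18.3-fold. The probe lies at chr15:101413898-101413957 of build mm7. A second Krt7 probe differed by 4.05, with its Hygro vec arrays below background. Krt18, the partner of Krt8, was at -0.19 and -0.11 in Cluster 2, against -1.28 and -1.09 in Hygro vec (2.05-fold, limma adjusted p = 1.03e-05). Krt8 was at 0.57 and 0.59, against -0.09 and -0.06 (1.57-fold, limma adjusted p = 0.00316). For each of these 3 keratins both Cluster 2 arrays lay above both Hygro vec arrays, as in 20.8% of all genes with 4 values. Krt19 was not called, with -3.08 and -2.8 in Cluster 2, against -3.51 and -3.09 in Hygro vec (limma adjusted p = 0.199).

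Genes of all the cell junctions listed had called rises and no called falls. Cdh1 encodes E-cadherin, the adhesion molecule of adherens junctions, and its probe lies at chr8:105268557-105268616 of build mm7. It was at 3.06 and 2.76 in Cluster 2, against 1.01 and 0.94 in Hygro vec. The groups lay well apart, and the rise was 1.93 ± 0.0863 (SE, n = 2, limma adjusted p = 4.04e-08), 3.82-fold. Of 18 adherens junction genes, 3 were called higher and 0 lower, the others being Ajuba, a LIM protein at E-cadherin contacts (1.61-fold), and Jup, encoding plakoglobin (1.29-fold). The median of that list was 0.0828, beside -0.00244 over all genes tested. At tight and tricellular junctions 3 of 20 genes were called higher, with a median of 0.104. Lsr, which recruits tricellulin to 3-cell contacts, was at 2.33 and 2.3 in Cluster 2, against -0.17 and -0.43 in Hygro vec. That is 6.14-fold higher (limma adjusted p = 2.83e-09). Cgnl1, encoding paracingulin, was 2.28-fold higher and F11r, encoding junctional adhesion molecule A, 1.2-fold. Against Hygro vec + Puro vec the F11r and Jup calls ended, and those of Cdh1, Ajuba, Lsr and Cgnl1 held.

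Desmosomes held the largest share of called genes, 7 of 11, with a median of 0.371. Perp, a tetraspan protein needed for desmosome assembly, was at 1.63 and 1.59 in Cluster 2, against -0.37 and -0.32 in Hygro vec (3.88-fold, limma adjusted p = 1.22e-08). Dsp, which links the plaque to keratin filaments, was at 0.89 and 0.74, against -0.5 and -0.61 (2.59-fold, limma adjusted p = 8.41e-07), with 1 of the 2 Hygro vec arrays above background. The plakophilins Pkp1 (2.19-fold), Pkp3 (1.5-fold) and Pkp2 (1.3-fold) rose as well, together with Jup and Evpl, encoding envoplakin (1.28-fold). Of these 7 calls, 6 held without pairing by repeat, where Evpl was lost, and 6 against Hygro vec + Puro vec, where Jup was lost. On the basement membrane side, 4 of 11 genes of the hemidesmosome list were called, all higher, among them the laminin chain Lamb3, the anchoring fibril collagen Col7a1 and the integrin chain Itgb4. Col7a1 was at 1.09 and 1.07 in Cluster 2, against -0.35 and -0.38 in Hygro vec (2.73-fold, limma adjusted p = 1.72e-06). Lamb3 was not well above background on either Hygro vec array, which leaves a bound, at least 2.1-fold higher (limma adjusted p = 2.26e-06). Itgb4 was 2.01-fold higher. The hemidesmosome list had a median of 0.207. Over the alternatives tried other than the 4 arrays alone, desmosome calls ran from 1 to 6 and hemidesmosome calls from 2 to 6.

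**Figure D2:**
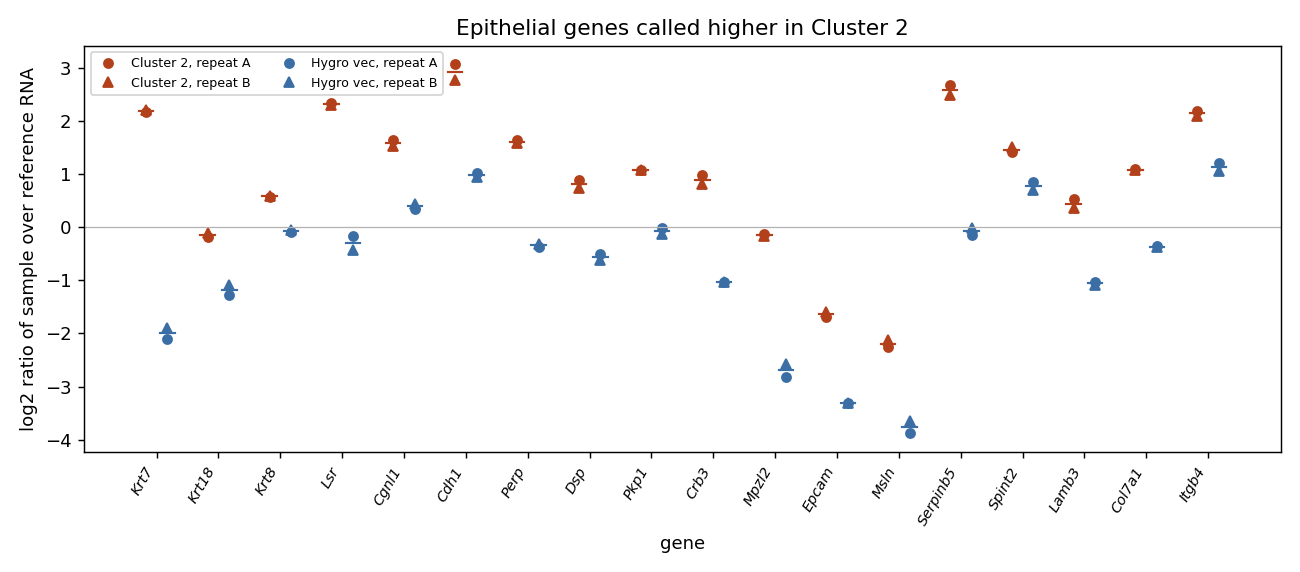
Log2 ratio of sample over reference RNA (y axis) on each array for 18 epithelial genes called higher (x axis), with Cluster 2 to the left of Hygro vec in each pair, circles for repeat A, triangles for repeat B and a bar at the mean. In every gene drawn both Cluster 2 arrays lie above both Hygro vec arrays, which 20.8% of all genes with 4 values also do.

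Proteins of the apical side and cell surface followed. Crb3, the apical determinant Crumbs3, was at 0.98 and 0.81 in Cluster 2, against -1.04 on both Hygro vec arrays. Hygro vec was not well above background, so the rise is given as at least 2.74-fold (limma adjusted p = 3.84e-08). With it, Pard6b (1.73-fold), Patj, a Crumbs complex scaffold (1.58-fold), and the apical syntaxin Stx3 (1.3-fold) rose among 25 polarity and trafficking genes, and none fell. The calls of Patj and Stx3 ended without pairing by repeat (limma adjusted p = 0.0593 and 0.111). Among 17 epithelial surface genes 7 rose and 0 fell, with a median of 0.108. Mpzl2, an adhesion protein of epithelia, was at -0.12 and -0.16 in Cluster 2, against -2.82 and -2.57 in Hygro vec (5.88-fold, limma adjusted p = 4.04e-08), and a dimmer second probe differed by 0.46. Epcam was at -1.69 and -1.59, against -3.31 on both Hygro vec arrays (3.18-fold, limma adjusted p = 3.76e-05). Both genes stayed below their level in the reference RNA in either group. Mesothelin, encoded by Msln, was 2.98-fold higher, Cdcp1 2.12-fold, the folate receptor Folr1 1.43-fold, the water channel Aqp5 1.36-fold and Tspan1 1.35-fold.

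Of 18 epithelial proteases and inhibitors 6 were called higher (33.3%, beside 2.3% of all genes) and 2 lower (11.1%, beside 1.78%). Serpinb5, encoding maspin, was at 2.67 and 2.48 in Cluster 2, against -0.14 and -0.02 in Hygro vec, where it was not well above background. The rise is at least 5.35-fold (limma adjusted p = 3.83e-07). The matriptase St14 (1.62-fold), prostasin Prss8 (1.36-fold) and their inhibitors Spint2 (1.6-fold) and Spint1 (1.45-fold) rose together, as did Serpinb6b (1.25-fold). The calls for St14, Prss8, Spint1 and Serpinb6b ended without pairing by repeat. Serpinb1a (-0.59) and Slpi (-0.55), both inhibitors of neutrophil proteases, were called lower, and neither call held without pairing by repeat or against Hygro vec + Puro vec. Of 17 epithelial regulators 2 were called, both higher. The splicing regulator Esrp2 was at 1.07 and 0.73 in Cluster 2, against 0.13 and 0.09 in Hygro vec (1.72-fold, limma adjusted p = 0.000879). Esrp1 was not above background on any of the 4 arrays.

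The promoters of the risen genes were searched for the E-box bound by Zeb factors, CACCTG or its reverse complement CAGGTG, in the 250 bases before each RefSeq start (GRCm38.p6, both strands). A gene counted once if any of its starts had a match. A match was found for 42.1% of the 38 genes with a listed promoter among those called at least 2-fold higher, 31.7% of 290 genes called higher and 16.7% of 252 called lower, against 19.1% of 12230 genes tested. At least 2 matches were found for 13.2%, 5.86% and 1.98% of the same gene sets, against 2.31% of genes tested. These shares are a description, and base composition was not matched between the sets. The 3 promoters below belong to genes that rose and hold at least 3 matches each, shown in capitals. Crb3 is at chr17:57061951-57062200 on the plus strand, Lsr at chr7:30973470-30973719 and Spint2 at chr7:29281978-29282227 on the minus strand.
Crb3: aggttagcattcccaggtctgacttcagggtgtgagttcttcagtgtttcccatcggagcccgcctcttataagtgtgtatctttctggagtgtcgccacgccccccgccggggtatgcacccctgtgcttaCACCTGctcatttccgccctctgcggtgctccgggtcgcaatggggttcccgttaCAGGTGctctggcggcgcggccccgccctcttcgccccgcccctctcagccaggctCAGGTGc
Lsr: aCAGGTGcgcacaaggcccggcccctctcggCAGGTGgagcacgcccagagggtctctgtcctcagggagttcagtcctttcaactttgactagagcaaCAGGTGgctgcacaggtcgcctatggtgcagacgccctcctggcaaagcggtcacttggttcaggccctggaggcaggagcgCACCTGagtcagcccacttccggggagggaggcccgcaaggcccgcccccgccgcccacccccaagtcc
Spint2: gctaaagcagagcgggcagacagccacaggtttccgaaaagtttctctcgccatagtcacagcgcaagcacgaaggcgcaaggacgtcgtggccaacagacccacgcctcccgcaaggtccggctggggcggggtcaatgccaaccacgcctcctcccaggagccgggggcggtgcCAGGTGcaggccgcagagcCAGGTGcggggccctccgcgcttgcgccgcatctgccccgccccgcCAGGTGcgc
In the Crb3 window the matches begin 118, 63 and 7 bases before the start, and in the Lsr window 249, 219, 151 and 69 bases before it. Those of Spint2 begin 74, 55 and 9 bases before the start. Krt7 and Serpinb5 had 1 match each and Epcam 2, and Perp, Mpzl2 and Cdh1 had no promoter to search. Many of the larger rises had no match, among them Dsp, Col7a1, Cgnl1, Jag1, Hs3st1, Prnd, Aqp8 and Macc1. The promoters shown were picked for their number of matches.

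Among the 15 repressors of Cdh1 and related factors, Zeb2 was the 1 gene called. It was at -0.04 and 0.03 in Cluster 2, against 0.75 and 0.78 in Hygro vec, a fall of 0.77 ± 0.075 (SE, n = 2, limma adjusted p = 5.47e-05), 1.71-fold. The other 3 Zeb2 probes kept differed by -0.81, -0.48 and -0.21. Zeb1 was at -2.95 and -2.55 in Cluster 2, against -2.49 and -2.35 in Hygro vec. That difference of -0.32 ± 0.189 was within the error (limma adjusted p = 0.412). Snai1 (-0.01), Tcf3 (-0.11) and Tcf4 (-0.11) were not called. Twist1 (-0.46) and Snai2 (-0.35) were above background on at most 1 array of a group and were not called. Cdh2, the gene of N-cadherin, was not tested. Over the 15 genes tested the median was -0.17, beside -0.00244 for all genes. It was -0.263 on the slide of repeat A and -0.102 on that of repeat B. Of the 15, 14 lay below 0 and 1 above, beside 9311 of all 18943 genes above 0.

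Of 70 genes reported elsewhere as miR-200 targets, 7 were called lower (10%, beside 1.78% of all genes) and 1 higher (1.43%, beside 2.3%). The list median was -0.0458. Without pairing by repeat 5 of the 7 falls were called, and against Hygro vec + Puro vec 4. Flt1, a VEGF receptor, was at 0.18 and 0.25 in Cluster 2, against 1.01 and 1 in Hygro vec (1.73-fold lower, limma adjusted p = 2.78e-05). Notch1 was at 0.92 and 0.85, against 1.57 and 1.49 (1.56-fold lower, limma adjusted p = 0.000247). Reck, a membrane inhibitor of metalloproteases (-0.55), the actin-severing factor Cfl2 (-0.33) and the phosphatase gene Ppm1f (-0.30) were lower too. The Ppm1f call ended without pairing by repeat, and neither Reck nor Ppm1f was called against Hygro vec + Puro vec. The Notch ligand Jag1, itself on the target list, rose: 1.17 and 1.18 in Cluster 2, against 0.1 and 0.12 in Hygro vec (2.09-fold, limma adjusted p = 1.83e-05). Sec23a, the cargo-binding subunit of the COPII coat and a reported miR-200 target, was at -0.26 and -0.25 in Cluster 2, against 0.1 and 0.42 in Hygro vec. The fall of 0.51 ± 0.127 passed at a limma adjusted p of 0.042 and did not without pairing by repeat (adjusted p = 0.0941). A second Sec23a probe differed by -0.19, and against Hygro vec + Puro vec the difference was -0.23 (limma adjusted p = 0.384). Tfg (-0.39) was the other COPII gene called of 17, and the list median was 0.00315. The Tfg call held without pairing by repeat and ended against Hygro vec + Puro vec. The genes of the secreted proteins Igfbp4 (-0.22, limma adjusted p = 0.307) and Tinagl1 (-0.01, limma adjusted p = 0.972), reported to depend on Sec23a, were not called. These values are of RNA, and secretion of the proteins was not tested.

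Of 28 mesenchymal genes tested, Pdgfra (1.52-fold) and Pdgfrb (1.45-fold) were called lower (7.14%, beside 1.78% of all genes) and 0 higher. The median was -0.0986, with 22 of 28 below 0 and 6 above, beside 9311 of all 18943 genes above 0. The Pdgfrb call ended without pairing by repeat (limma adjusted p = 0.26). The list median was -0.288 on the slide of repeat A and -0.0318 on that of repeat B. It was -0.416 with all spots kept, and 0.113 with median centring, which moved the median of all genes to 0.136. Vim had no value on Cluster 2 repeat A; it was at -0.91 on repeat B, against -0.41 and -0.76 in Hygro vec (limma adjusted p = 0.437). Fn1 was at -2.01 and -1.82, against -1.72 and -1.74 (limma adjusted p = 0.314). Neither was called against Hygro vec. Matrix genes split, with 6 of 31 higher and 5 lower. Thbs1, encoding thrombospondin 1 (2.24-fold), the fibulin Fbln2 (1.48-fold) and the basement membrane collagens Col4a1 (1.38-fold), Col4a2 (1.31-fold), Col18a1 (1.27-fold) and Col8a1 (1.26-fold) rose. Efemp1 (-0.58), the laminin chain Lama4 (-0.47), Col5a2 (-0.46), Mgp (-0.41) and Efemp2 (-0.30) were lower, 1 of these 5 also without pairing by repeat. Mmp3, a stromelysin, was at 2.27 and 2.1 in Cluster 2, against 3.3 on both Hygro vec arrays (2.17-fold lower, limma adjusted p = 2.83e-05). Mmp11 (-0.29) was the other metalloprotease called of the 16 genes in its list. In the Igfbp list, Igfbp7 was 1.76-fold higher, and Igf2r (-0.37) and Igfbp5 were lower, Igfbp5 by at least 1.34-fold, as it was not above background in Cluster 2.

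The deepest fall was that of Il33, an alarmin of epithelial and stromal cells. It was at -2.96 and -2.67 in Cluster 2, against -1.29 and -1.31 in Hygro vec, a fall of 1.51 ± 0.102 (SE, n = 2, limma adjusted p = 1.82e-06), 2.86-fold. Of 39 cytokine and acute phase genes 8 were lower (20.5%, beside 1.78% of all genes) and 4 higher (10.3%, beside 2.3%). The adhesion receptor Vcam1 was at -1.85 and -1.69 in Cluster 2, against -0.81 and -0.61 in Hygro vec (2.08-fold lower, limma adjusted p = 7.36e-06), and a dimmer second probe differed by -0.49. Cebpd, a transcription factor of the acute phase, was at -3.82 and -3.76, against -2.74 and -2.86 (1.98-fold lower, limma adjusted p = 8.34e-05). The inflammatory caspases Casp1 (1.73-fold) and Casp4 (1.43-fold), the NF-kappa-B cofactor Nfkbiz (1.51-fold), Cx3cl1 (1.26-fold) and Il18 (1.25-fold) were lower too. Of the 8 falls, 7 held without pairing by repeat, where Il18 was lost. Against Hygro vec + Puro vec 6 held, and Il18 and Cx3cl1 were lost. Il24 (2.53-fold), Cxcl16 (1.77-fold), the complement gene C3 (1.72-fold) and Ptx3 (1.34-fold) were higher. Other genes among the 15 largest falls were the water channel Aqp1 (-1.03), the selenium-binding proteins Selenbp1 (-0.91) and Selenbp2 (-0.83), Lgi2 (-1.2, with -0.57 at a second probe), Bdh2 (-0.81) and Sned1 (-0.8).

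Trim12c, Serpinb8 and Kif5a rank among the largest falls through Hygro vec repeat B. Serpinb8 was at -0.57 and -0.33 in Cluster 2, against -0.09 and 1.42 in Hygro vec. Trim12c was at -1.29 and -1.2, against -0.73 and 0.72, and Kif5a at -2.31 and -1.85, against -1.65 and -0.44. In all 3 the Hygro vec B array stood far above the A array. Against Hygro vec + Puro vec the differences were -0.22 for Serpinb8, -0.53 for Trim12c and -0.09 for Kif5a, none of them called (limma adjusted p between 0.276 and 0.862).

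**Figure D3:**
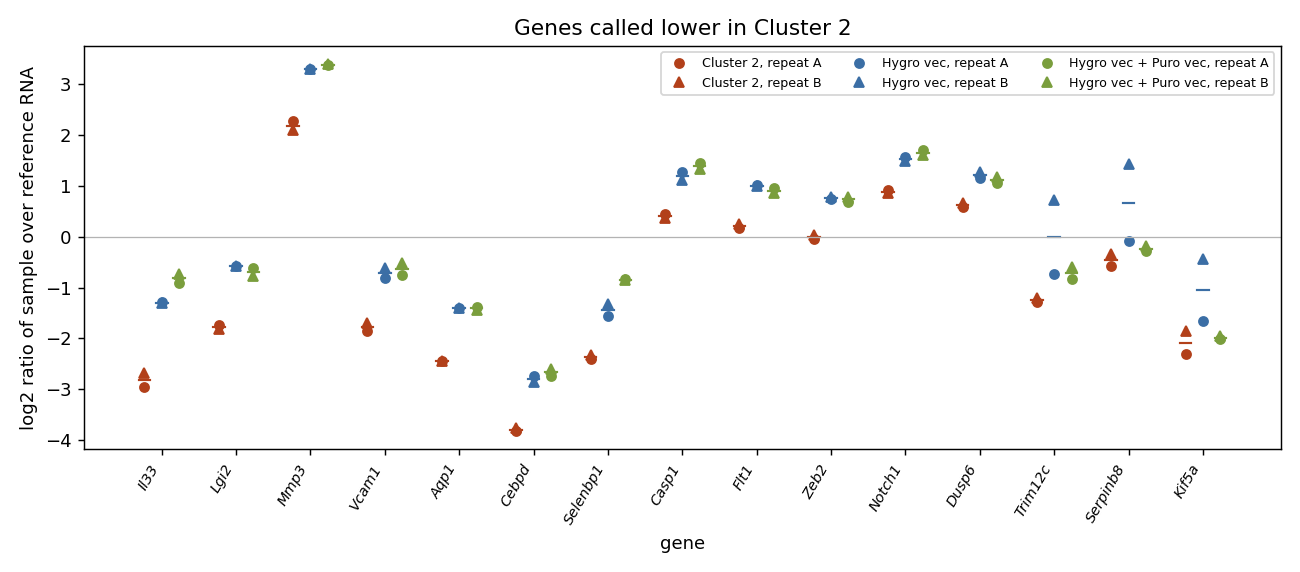
Log2 ratio of sample over reference RNA (y axis) on each array for 15 genes called lower in Cluster 2 (x axis), with Cluster 2 at the left, then Hygro vec and Hygro vec + Puro vec; circles are repeat A, triangles repeat B and bars means. In Il33, Vcam1, Aqp1 and Zeb2 both controls lie above Cluster 2, whereas in Trim12c, Serpinb8 and Kif5a 1 Hygro vec array stands apart from the other 5.

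Interferon-stimulated genes formed the largest block of falls. Of 46 tested, 14 were called lower (30.4%, beside 1.78% of all genes) and 1 higher, and the list median was -0.241, with -0.324 on the slide of repeat A and -0.219 on that of repeat B. The falls were modest, from 1.25-fold to 1.92-fold. Gbp7, a guanylate-binding GTPase, was at -0.52 and -0.6 in Cluster 2, against 0.1 and 0.66 in Hygro vec (limma adjusted p = 0.000557). Ifit1, which binds foreign RNA caps, was at -0.65 and -0.51, against 0.06 and 0.16 (limma adjusted p = 0.00171). Oasl2 was at -1.03 and -0.95, against -0.42 and -0.29 (limma adjusted p = 7.49e-05). In these 3 genes both Cluster 2 arrays lay below both Hygro vec arrays, as in 21.3% of all genes with 4 values. Ifi202b (-0.85), Oas2 (-0.65), Ifi203 (-0.63), Ifi27 (-0.61), Trim30a (-0.52), Ifi204 (-0.51), Zbp1 (-0.46), the transcription factor Irf7 (-0.43), Ccl5 (-0.43), Irgm1 (-0.36) and the ubiquitin-like modifier Isg15 (-0.33) made up the rest; those after Ifi203 were named after their values were seen. Isg20, a 3′ exonuclease, was the 1 member called higher (1.85-fold). Without pairing by repeat 10 of the 14 falls were called, and against Hygro vec + Puro vec also 10. Of 17 antigen presentation genes 1 was called, Tapbp (1.3-fold higher), with H2-K1 at -0.03 and H2-T23 at -0.01. That is 5.88% called higher, beside 2.3% of all genes, and a list this short can hold so few calls without differing from the rest. The Tapbp call ended without pairing by repeat and against Hygro vec + Puro vec.

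The promoters of these genes were searched on both strands for GAAA followed, after any 2 bases, by GAAA again, the core letters read by interferon regulatory factors. Of the 14 falls, 9 have a listed promoter and 6 of these 9 hold a match in the 250 bases before the start (66.7%), against 3.19% of genes tested. Such elements are a known feature of interferon-stimulated genes, whatever their change. Ifit1 (chr19:34640639-34640888, plus strand) and Isg15 (chr4:156200819-156201068, minus strand) are shown with the matches in capitals, 3 overlapping ones in Isg15.
Ifit1: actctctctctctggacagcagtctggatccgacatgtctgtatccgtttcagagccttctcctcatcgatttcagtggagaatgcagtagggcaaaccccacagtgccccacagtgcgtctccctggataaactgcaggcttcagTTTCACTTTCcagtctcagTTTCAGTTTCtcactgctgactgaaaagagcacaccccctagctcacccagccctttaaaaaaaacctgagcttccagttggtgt
Isg15: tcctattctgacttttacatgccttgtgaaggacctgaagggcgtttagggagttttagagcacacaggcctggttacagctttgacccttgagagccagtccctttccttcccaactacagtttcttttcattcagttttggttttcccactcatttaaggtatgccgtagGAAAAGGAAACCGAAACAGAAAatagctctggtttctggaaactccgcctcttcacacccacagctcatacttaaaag

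Sterol synthesis genes rose. Of 37 genes driven by SREBP transcription factors, 8 were called higher and 0 lower, and the median was 0.176. Idi1, an isomerase of the isoprenoid route, was at -0.01 and -0.06 in Cluster 2, against -0.69 and -0.66 in Hygro vec (1.56-fold, limma adjusted p = 0.00273). Dhcr7 (1.46-fold), Hmgcs1 (1.37-fold), Ebp (1.35-fold), Msmo1 (1.33-fold), Sc5d (1.32-fold) and Hsd17b7 (1.29-fold) rose too, all enzymes of sterol synthesis. All 8 were also called against Hygro vec + Puro vec; the number called ran from 1 to 25 over the alternatives other than the 4 arrays alone, with the list median above that of all genes in each. Of 30 endoplasmic reticulum stress genes 4 were called higher, from 1.19-fold to 1.25-fold (Creld2, Hyou1, Dnajb11 and Hspa5). Of these 4 calls, 2 held without pairing by repeat and 1 against Hygro vec + Puro vec, and 0 genes of the list were called with processed signals or without either B array. None of 42 replication and mitosis genes and none of 25 glycolysis and hypoxia genes was called, with medians of -0.033 and -0.0343. Of all genes 4.08% were called, so lists of this size can hold no call without differing from the rest. Pcna differed by -0.07 and Birc5 by 0.12. Against Hygro vec + Puro vec, 5 of the 25 glycolysis and hypoxia genes were called lower and their median was -0.208.

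The ErbB adaptor Grb7 was at -0.46 and -0.37 in Cluster 2, against -2.53 and -1.82 in Hygro vec (3.39-fold, limma adjusted p = 2.8e-05). The ligands Epgn (1.39-fold) and Hbegf (1.35-fold) rose and the receptor inhibitor Lrig1 (-0.32) fell, which makes 3 of 16 ErbB genes higher (18.8%) and 1 lower. Epha1, an ephrin receptor of epithelia, was at 1.48 and 1.1 in Cluster 2, against -0.24 on both Hygro vec arrays (2.89-fold, limma adjusted p = 9.58e-07), and Epha4 was at least 1.27-fold higher. The ligands Wnt10a (2.33-fold) and Wnt7a (1.82-fold) rose, and Wnt4 (-0.66) and the effector Tcf7l2 (-0.52) fell, of 29 Wnt genes. The Lrig1 and Wnt4 calls ended without pairing by repeat and against Hygro vec + Puro vec, where Wnt10a and Wnt7a stayed called. Tcf7l2 stayed called there but not with processed signals or an offset of 10. In the TGF-beta list 5 of 34 rose (14.7%, beside 2.3% of all genes) and 0 fell, with a median of 0.0217. They were Inhba (1.43-fold), Skil (1.38-fold), Ltbp2 (1.33-fold), Tgfb3 (1.27-fold) and the inhibitor Smad7 (1.23-fold). Of these 5 calls, 4 held without pairing by repeat and 4 against Hygro vec + Puro vec, and 0 genes of the list were called with processed signals. Junb (1.31-fold) and Jund (1.37-fold) rose, while the ERK phosphatase Dusp6 (-0.58), Egr1 (-0.54), Egr2 (-0.49) and Jun (-0.36) fell. That makes 2 of 20 immediate early genes higher (10%, beside 2.3% of all genes) and 4 lower (20%, beside 1.78%). Jund, Egr1 and Jun were not called against Hygro vec + Puro vec, and the Egr1 call ended without pairing by repeat. The integrin chain Itgb5 rose 1.34-fold, and Itgb2 (-0.37) and Itgb7 (-0.3) fell. Among 40 actin and YAP/SRF genes, Ankrd1 (1.6-fold), Fhl2 (1.51-fold), Tpm2 (1.35-fold) and Rnd1 (1.3-fold) rose, and the YAP partner Wwtr1 (-0.5) and the kinase Mylk (-0.49) fell with Cfl2. The glutathione transferases Gsta1 (2.54-fold) and Gsta2 (1.96-fold) rose and Gstm1 (-0.41) fell; Gsta1 and Gsta2 are near-identical genes whose probes may not tell them apart. Fabp4 (-0.59) was the 1 adipocyte marker called.

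Several of the largest rises fall outside these lists. Prnd, encoding the prion-like protein doppel, was at 5.35 and 4.91 in Cluster 2, against 3.05 and 2.79 in Hygro vec (4.62-fold, limma adjusted p = 1.88e-07). Kctd12b was at 1.53 and 1.07, against -1.55 and -1.33 (6.71-fold, limma adjusted p = 2.89e-07). Its other 2 probes kept, not above background on either Hygro vec array, differed by 0.67 and 0.97. Hs3st1, a heparan sulfate sulfotransferase, was at 1.98 and 1.91, against -0.35 and -0.11 (4.52-fold, limma adjusted p = 1.12e-07). In all 3 the groups lay apart by more than the repeats differed, and for Kctd12b and Hs3st1 1 of the 2 Hygro vec arrays was above background. The water channel Aqp8 rose 3.73-fold. Macc1 rose at least 2.66-fold and C130073F10Rik at least 2.39-fold, each with Hygro vec below background.

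**Figure D4:**
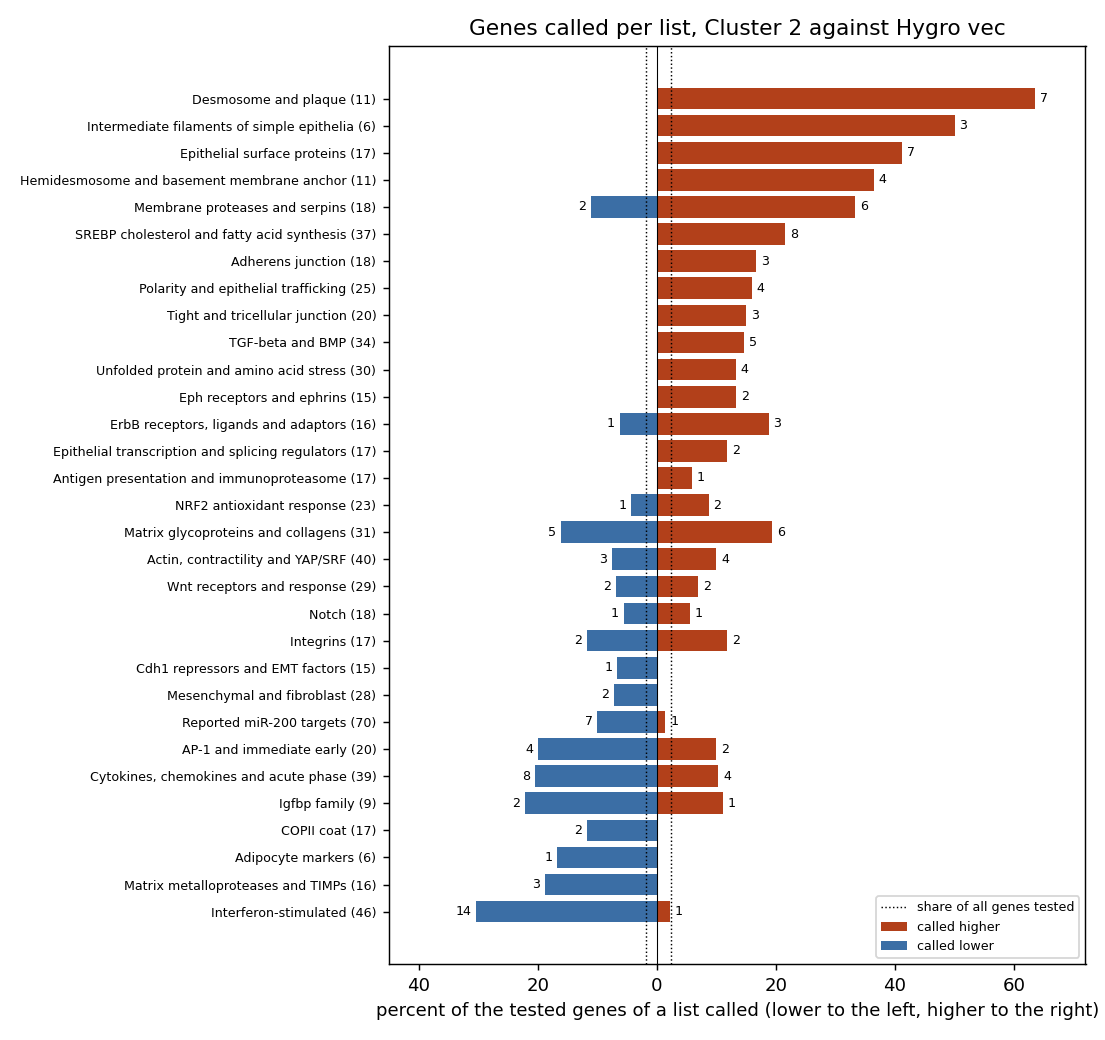
Share of the tested genes of each list (number tested in brackets) called higher (bars to the right, percent) or lower (bars to the left, percent) in Cluster 2 against Hygro vec, with the number called at the bar and dotted lines at 2.3% and 1.78%, the shares over all genes. Desmosome, keratin and epithelial surface lists reach farthest to the right, and the interferon list farthest to the left.

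A further control on the same slides, Hygro vec + Puro vec, differed from Hygro vec in 22 called genes (0.116%; 15 higher and 7 lower, with 1862 at an unadjusted p under 0.05). Krt7 was the largest of these: 0.11 on the double-vector A array, against -2.1 and -1.9 in Hygro vec, a difference of 2.16 ± 0.125 (limma adjusted p = 2.84e-05). Its B array had no value at that probe, and the second Krt7 probe was at 0.43 and -0.8. Set against the double vector, Cluster 2 had 933 called genes (4.92%; 506 higher and 427 lower). Of the 435 rises, 329 were called the same way against this control, and of the 338 falls 183; the sign turned in 1 rise and 16 falls. Krt7 was then 2.03 higher (limma adjusted p = 1.89e-06), Cdh1 1.67 (adjusted p = 1.74e-07) and Zeb2 0.74 lower (adjusted p = 6.24e-05). Krt8 (0.37, adjusted p = 0.0617) was no longer called. Twist1 (-0.92, adjusted p = 0.00174), Fn1 (-0.48, adjusted p = 0.00806) and Igfbp4 (-0.53, adjusted p = 0.0129) were called lower against the double vector, and Igfbp5 was at 0.14 (adjusted p = 0.609). Cluster 2 enters both comparisons.

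Clusters 1+2 cells, set against Hygro vec + Puro vec on the same slides, carried both clusters. They had 5054 called genes (26.7%). Of the 773 genes called in Cluster 2, 637 were called the same way in Clusters 1+2, which is 82.4% of the Cluster 2 calls and 12.6% of the Clusters 1+2 calls, and 9 were called the opposite way. The difference between the effects was called for 1439 genes (7.6%). Of the 637 shared genes 572 were farther from 0 in Clusters 1+2, with the difference called for 327. Cdh1 rose by 1.93 in Cluster 2 and 2.86 in Clusters 1+2 (limma adjusted p of the difference 0.000491), and Dsp by 1.37 and 3.18 (adjusted p = 3.73e-06). Zeb2 fell by 0.77 and 2.1 (adjusted p = 1.34e-05), Notch1 by 0.65 and 2.35 (adjusted p = 3.73e-06) and Mmp3 by 1.12 and 4.16 (adjusted p = 6.62e-07). All 8 SREBP genes were farther from 0 in Clusters 1+2 with the difference called, Idi1 at 0.64 and 2.41 among them. Esrp1 was called in Clusters 1+2 only (1.35 beside 0.06, adjusted p of the difference 1.47e-05), as were Igfbp4 (-1.07, adjusted p of the difference 0.00434) and Vim (-0.87, adjusted p of the difference 0.00705). Cebpd (-0.99 and -0.98) and Ifi202b (-0.85 and -0.84) gave nearly the same value in both, and Itgb4 1 and 0.93, with adjusted p of the differences between 0.796 and 0.99.

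A few genes moved farther in Cluster 2 or against the direction of Clusters 1+2. Among genes called the same way whose difference of effects was also called, Krt7 was the 1 farther from 0 in Cluster 2 (4.19 and 2.07, limma adjusted p = 1.37e-05) and its level was alike in the 2 groups, at 2.17 and 2.21 in Cluster 2 and 2.2 and 2.24 in Clusters 1+2, while the controls differed as given above. Gsta2 (0.97 and -0.14, adjusted p = 0.000289) and Gsta1 (1.35 and -0.3, adjusted p = 0.00995) were called in Cluster 2 and not in Clusters 1+2. Against the double vector Gsta2 was 0.54 higher (adjusted p = 0.00629) and Gsta1 differed by 0.74 (adjusted p = 0.112). Smad7 was called higher in Cluster 2 (0.3) and lower in Clusters 1+2 (-0.29), adjusted p of the difference 0.00534. Irgm1 (-0.36 and 0.43, adjusted p = 0.000693) and the interferon-inducible chaperone gene Rtp4 (-0.77 and 0.39, adjusted p = 0.000497) were called lower in Cluster 2 and higher in Clusters 1+2; Rtp4 was named after its values were seen. The Cluster 2 calls of Smad7 and Irgm1 ended without pairing by repeat (adjusted p = 0.0516 and 0.0613) and with any of the 4 arrays left out. Of the 14 interferon-stimulated falls 7 were called lower in Clusters 1+2 and 1 higher.

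Cluster 1 cells, set against their own Puro vec with the dyes exchanged, had 1811 called genes (9.55%). Cluster 2 and Cluster 1 shared 270 calls in the same direction, 34.9% of the Cluster 2 calls and 15% of the Cluster 1 calls, and 45 in opposite directions. Dye, slide and vector differ between these comparisons together with the miRNA cluster and cannot be told apart from it. The difference between the effects was called for 820 genes (4.33%). Perp (1.96 in Cluster 2, 1.94 in Cluster 1), Epcam (1.67, 1.40) and Msln (1.57, 1.78) rose in both, with adjusted p of the difference between 0.546 and 0.963. Hs3st1 (2.18 and 0.07, adjusted p = 1.33e-05), Aqp8 (1.9 and 0.08, adjusted p = 4.23e-06), Dsp (1.37 and 0.29, adjusted p = 0.000366) and Jag1 (1.07 and 0, adjusted p = 0.000727) rose more in Cluster 2. Il33 fell by 1.51 in Cluster 2 and rose by 0.52 in Cluster 1 (adjusted p of the difference 1.27e-05).

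The interferon list had medians of opposite sign in the Cluster 2 and Cluster 1 comparisons, which differ in dye, slide and vector as well. None of its 46 genes was called lower in Cluster 1 and 18 were called higher, beside 5.65% of all genes called higher there, and the list medians were -0.241 in Cluster 2 and 0.304 in Cluster 1. The difference was called for 23 of the 46, in each with the lower value in Cluster 2, beside 2.87% of all genes. Ifi27 was at -0.61 in Cluster 2 and 1.08 in Cluster 1 (adjusted p = 9.69e-06), Oasl2 at -0.63 and 0.52 (adjusted p = 3.03e-05) and Isg15 at -0.33 and 0.65 (adjusted p = 0.00026). Of the 14 falls, 13 had a called difference and 5 were called higher in Cluster 1. In Clusters 1+2 the list split, with 19 genes called higher and 8 lower and a median of 0.169. The Cluster 2 effect differed from it in 18 of the 46 genes and was the lower of the pair in 17, beside 3.63% of all genes.

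**Figure D5:**
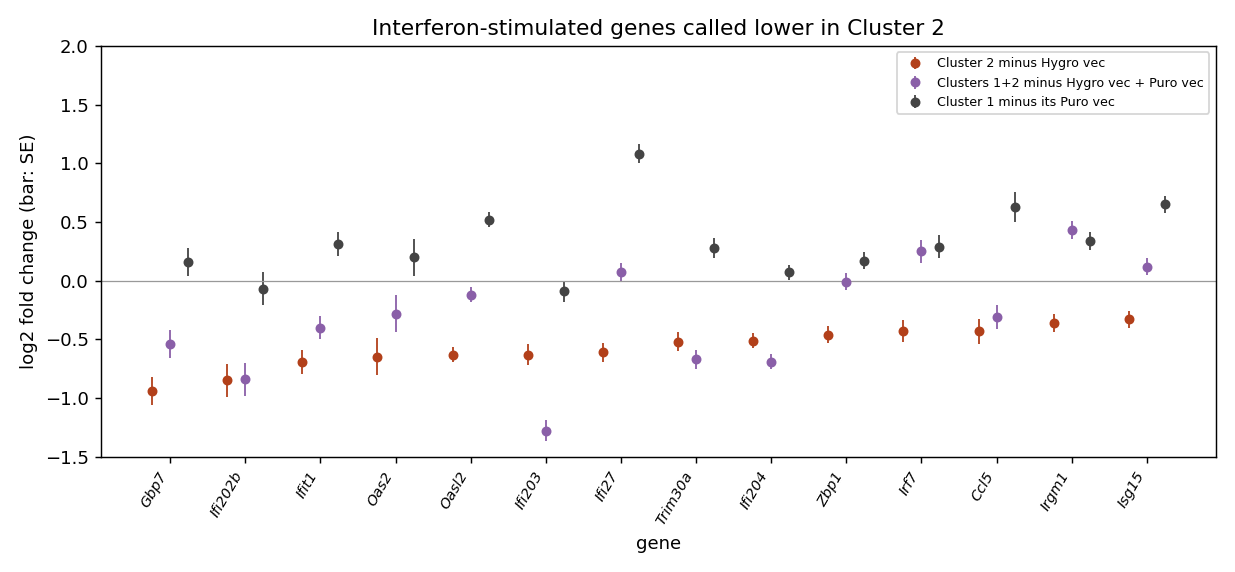
Log2 fold change with its SE (y axis) of the 14 interferon-stimulated genes called lower in Cluster 2 (x axis), in Cluster 2 against Hygro vec, Clusters 1+2 against Hygro vec + Puro vec and Cluster 1 against its Puro vec. All 14 lie below 0 in Cluster 2, whereas 12 lie above 0 in Cluster 1 and Clusters 1+2 spread on both sides.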

How the data were processed

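RNA from 4TO7 cells was hybridised to 2-colour Agilent mouse arrays (16 arrays, 2 per group). The deposited scanner intensity values per spot came from Agilent Feature Extraction 9.5.3.1, with probe positions on build mm7, per the file headers. The log10 ratios in the deposited files are red over green processed signal, per the file headers. The deposited table of linear ratios matched the processed sample over reference ratios and was used for that check only; the sources used here do not say how the authors centred it.

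From the intensities, spots marked as outliers were left out, background was corrected (normexp, offset 50) and loess was run within arrays, giving control spots weight 0 (limma 3.58.1, R 4.3.3). Loess takes most genes as unchanged at each brightness. Spots of 1 probe were averaged as log2 ratios of sample over reference. A probe was kept where the sample channel stood well above background on both repeats of some group, and the brightest kept probe stood for a gene. Symbols were updated through RefSeq for 22951 probes by accession, 6659 by symbol and 3109 by synonym, and 8455 kept the name in the file. A limma model with 8 group means and the repeat of the Cy3 groups as a block was fitted to all 16 arrays, with two-sided tests and Benjamini-Hochberg adjustment over all genes. The numbers A and B mark the slide: deviations of Cluster 2 and Hygro vec correlated at 0.273 across genes. Where neither array of a group was well above background, the fold is a lower bound against the lowest signal well above background, given as "at least"; where 1 of the 2 was, the measured fold is given. The fit was also run on simulated data with independent noise and, for each gene, the same spread on every array. Such data hold no single array that stands apart, so they do not test that case.

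The groups and gene lists were chosen with earlier results of these data known. Named genes were the 15 largest rises and 15 largest falls with a symbol that lay beyond both Hygro vec arrays, up to 6 called members per list and direction (the 2 brightest where fewer than 2 were called), and a fixed set around Cdh1, the Zeb factors, keratins and Sec23a. Alternatives covered the block, the arrays fitted, background, normalisation, filters, probes, the control and each repeat left out. Matches of the seeds in transcripts were not analysed here. Some called genes are not reported here.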

Additional observations from a re-analysis of the deposited data

How the results depend on the processing

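With 2 arrays a group, the number of calls depended on the spread pooled over the series. Without the replicate block 540 genes were called, with 202 lower, and the comparison with the Cluster 1 effect gave 506. The 8 Cy3 arrays alone gave 359 calls (239 higher, 120 lower; 470 against Hygro vec + Puro vec), and the 4 arrays alone 1 (1 higher, 0 lower by limma, with 2598 at an unadjusted p under 0.05). Processed signals gave 170 (130 higher, 40 lower), 316 calls for the difference from Clusters 1+2, 195 from Cluster 1 and 186 against the double vector. Median centring moved the median of all genes to 0.136 and gave 4680 (4307 higher), 3836 for the difference from Clusters 1+2 and 2393 from Cluster 1. A scaled spread gave 163 (130 and 33), 323 for the difference from Clusters 1+2 and 195 against the double vector. The sample channel alone gave 208 (153 and 55), 571 for the difference from Clusters 1+2 and 244 against the double vector. An offset of 10 gave 284 (191 and 93), 587 for the difference from Clusters 1+2, 362 from Cluster 1 and 372 against the double vector. Keeping all spots gave 116 (90 and 26), 384 for the difference from Clusters 1+2, 26 from Cluster 1 and 115 against the double vector, and no filter gave 513 for the difference from Cluster 1. Leaving out 1 array gave 266 to 880 calls (192 to 590 higher, 74 to 538 lower), 902 to 1533 for Clusters 1+2, 327 to 754 for Cluster 1 and 329 to 883 against the double vector. Higher calls were 38.9% of the total without Hygro vec repeat A and 72.2% without Cluster 2 repeat B. The difference from Cluster 1 has no value with the Cy3 arrays alone or the sample channel alone, since Cluster 1 was in the other dye. A filter for signal above background on all 4 arrays, chosen after seeing the data, gave 828.

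Of the 773 calls, 224 (165 higher, 59 lower) kept their call whichever array was left out, and Krt7 was the 1 named gene called under every alternative. Signs turned for Igfbp5 (0.01 with processed signals, 0.14 against the double vector) and, with median centring, for Pcna (0.28), H2-K1 (0.33), H2-T23 (0.33), Tinagl1 (0.29) and Efemp2 (0.02); the cause was not tested. Interferon-stimulated falls numbered between 4 and 15 over the alternatives other than the 4 arrays alone.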
